A study of Mus musculus with 6 samples.

Results

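The distal Satb1 enhancer cluster is a stretch of mouse chromosome 17 that lies 338 to 688 kb upstream of a 4C bait at Satb1. The study describes this bait as the promoter of Satb1, and its listed position, chr17:51962000, lies within the annotated gene. The stretch holds the gene's distal thymocyte enhancers. Its members are the DpnII restriction fragments whose midpoints fall from position 52300000 to 52650000 (mm9), 925 of the 229546 fragments listed for the chromosome. The stretch was chosen by its contacts in the thymocyte library described here, so its level, its peaks and its excess over embryonic stem cells are given as a description and not as a test. Of the series' 6 libraries, 2 use this bait. DP is CD4+/CD8+ double-positive thymocytes sorted by FACS from c57/Bl6 mice of 4 weeks, and ES is the J1 embryonic stem line, of 129S4/SvJae origin. Both were fixed in 2% formaldehyde for 10 min and sequenced for 26 nt of each captured end. Each cell type has 1 library, so no value has a replicate error, no test could be made between them, and cell type and strain cannot be told apart. The study's methods give a stronger and hotter SDS treatment of the nuclei for DP than for ES, while the labels give the same treatment for both, and this too cannot be told apart from cell type. No gene expression was measured in these libraries, and the labelled cell types were not checked against markers.

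Satb1 encodes a nuclear protein that binds AT-rich DNA, organises chromatin and is needed for normal T cell development in the thymus. Enhancers are stretches of DNA that raise transcription of a gene from a distance, often while held near its promoter in the nucleus. In 4C, chromatin is cross-linked, cut and re-ligated, so that fragments close to the bait in space become joined to it, and the reads of each fragment count those junctions after PCR. The signal falls with distance from the bait, and a contact is read as a rise over its surroundings.

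The annotation (GENCODE, mm9) places 1 gene in the stretch, AC121600.1, a predicted microRNA at chr17:52544362-52544442 on the plus strand. The nearest gene on the bait side is Satb1 itself (chr17:51875512-51972615, minus strand), which ends 327 kb before the stretch. On the far side the nearest gene is Kcnh8, a voltage-gated potassium channel gene (chr17:52865084-53044561, plus strand), which starts 215 kb beyond it. The 925 fragments therefore cover intergenic sequence apart from AC121600.1. Their median length was 246 bp, with a range of 5 to 2394 bp, and 412 (44.5%) held a site for the second enzyme, Csp6I.

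Sequences of some leading fragments are shown first, since each read starts at a DpnII site and the text returns to these fragments. They are the 3 DP fragments with most reads, which had no read in ES, and the leading fragments short enough to print whole, and the other leading fragments are given by their reads only. Capitals mark the DpnII site GATC and, where present, the Csp6I site GTAC. Each is from the mm9 genome, 5′ to 3′ on the plus strand unless marked, and is named by the library in which it led and by its distance from the bait. Whole fragments are given where they are short, and the captured ends where they are long. The last line is an end from the emptiest 5 kb of the stretch, shown because it occurs 20802 times in the genome.
DP 363 kb, first end, chr17:52324508-52324533: GATCaggtaggcaaaggaagagatgt
DP 363 kb, last end, chr17:52325929-52325954, minus strand: GATCtttttctacaaagctccttctg
DP 464 kb, whole fragment, chr17:52426042-52426194: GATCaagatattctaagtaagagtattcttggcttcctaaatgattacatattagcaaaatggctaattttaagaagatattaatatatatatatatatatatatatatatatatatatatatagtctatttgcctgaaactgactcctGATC
DP 389 kb, first end, chr17:52350449-52350474: GATCtggagggacataggtggaggag
DP 389 kb, last end, chr17:52350810-52350835, minus strand: GATCaacaaatagtcactgattaact
DP 629 kb, whole fragment, chr17:52591033-52591129: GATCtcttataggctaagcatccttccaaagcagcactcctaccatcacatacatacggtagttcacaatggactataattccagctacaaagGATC
ES 489 kb, whole fragment, chr17:52450463-52450647: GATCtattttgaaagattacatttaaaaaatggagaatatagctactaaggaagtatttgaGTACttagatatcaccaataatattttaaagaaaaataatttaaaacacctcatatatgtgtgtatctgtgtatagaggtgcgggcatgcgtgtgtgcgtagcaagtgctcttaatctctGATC
Repeat end, chr17:52515476-52515501: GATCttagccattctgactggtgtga

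In DP the 5 fragments with most reads held 4262, 3907, 3767, 3603 and 3526 reads, at 363, 464, 389, 392 and 629 kb from the bait. The same fragments held 0, 0, 0, 226 and 70 reads in ES. All of them had ends that occur only once in mm9, and the fragments at 464 and 629 kb are only 149 and 93 bp long and lack a Csp6I site. In ES the 5 leading fragments held 1729, 1610, 1605, 1555 and 1404 reads, at 354, 496, 489, 478 and 400 kb. These fragments had 2359, 1358, 468, 2407 and 573 reads in DP. Every ES leader was thus read in DP, while 3 of the 5 DP leaders were not read in ES. Among the 50 leading fragments, 14 of the DP list had 0 reads in ES and 3 of the ES list had 0 in DP. Of the 599 fragments whose ends both occur once in mm9, 71.0% were read in ES and 85.0% in DP. The 5 leaders held 5.73% of the DP and 7.07% of the ES reads of the stretch, and it took 83 and 65 fragments to reach 50% of the reads. Among the 925 fragments, the lists of the 10 leading fragments shared 0, and those of the 50 leading fragments shared 9, 18% of each list. The overlap of lists of these lengths drawn without regard to reads was not computed. These counts therefore do not tell whether the leaders of the 2 libraries differed.

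Over the whole stretch DP contacts were denser than ES contacts. The stretch took 332848 of 1997083 DP reads, or 16.7% (95% Wilson interval 16.6 to 16.7), and 111749 of 1847598 ES reads, or 6.05% (6.01 to 6.08). These intervals treat every read as independent. Reads were not collapsed to molecules, so the intervals are narrower than the counting error of the contacts, and they measure no spread between libraries. DP had a mean of 359.8 and a median of 44 reads per fragment, against a mean of 120.8 and a median of 4 in ES. At least 1 read was found on 604 fragments (65.3%) in DP and on 506 (54.7%) in ES. After quantile normalization of both libraries over the fragments within 1.5 Mb of the bait, the means were 322 and 132, a DP to ES ratio of 2.45. The same ratio was 1.26 in the desert between 20 kb from the bait and the stretch, 1.60 in the next 350 kb beyond it, and 0.537 in the mirror stretch downstream of the bait.

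In 10 kb steps the DP profile rose and fell along the stretch. A peak was called where a step was the highest within 20 kb and at least 1.5 times the mean of its flanks, the steps centred more than 10 and up to 30 kb away, and a valley by the mirror of that rule. DP had 6 peaks among the 35 steps (17.1%), against 14.4% of all 10 kb steps tested within 1.5 Mb of the bait, and 5 valleys (14.3%), against 14.4%. ES had 4 peaks, with 13.1% of all steps called, and 7 valleys, with 15.5% called. The share of steps called as peaks or valleys was thus near the share over the whole range in both libraries.

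The highest DP step, centred 363 kb from the bait (chr17:52320000-52329999), had a mean of 1179 reads per fragment, 1.84 times its flanks. ES had 220 there, 1.18 times its flanks, and no peak. The step at 453 kb (chr17:52410000-52419999) had 816 reads per fragment in DP, a height of 2.03, and 194 in ES, a height of 1.72. Both libraries peaked at this step. The next DP peak, at 493 kb (chr17:52450000-52459999), reached 624 reads per fragment and 1.60 times its flanks in DP, and 262 and 2.51 times in ES, so the rise over the surroundings was larger in ES. At 543 kb (chr17:52500000-52509999) the mean was 409 in DP and 170 in ES, with heights of 2.61 and 2.22. This was the called DP peak that stood highest over its flanks, although its level was lower than that of the peaks nearer the bait.

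The remaining DP peaks lay at 583 and 643 kb. At 583 kb (chr17:52540000-52549999), the step that holds AC121600.1, DP had 217 reads per fragment and a height of 1.65, and ES had 47.0 and 0.73. At 643 kb (chr17:52600000-52609999) DP had 662 and a height of 2.21, and ES had 147 and 1.66. The step before it, at 633 kb, had nearly the same DP level, 640 reads per fragment. Its height of 3.26 over all fragments was the largest of the 35 steps, 2.74 without its top fragment. Over fragments whose ends both occur once in the genome its height was 1.93, below the 2.86 at 543 kb. The step at 633 kb was not called because the step at 643 kb was higher. Each of the 4 ES peaks fell on a DP peak step, with 17.1% of the 35 steps called as DP peaks. The DP peaks at 363 and 583 kb had no ES peak. Of the 6 DP peaks, those at 363, 453 and 643 kb lay in windows plotted by the study, which were marked on this DP library, and those at 493, 543 and 583 kb lay outside them.

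**Figure D1:**
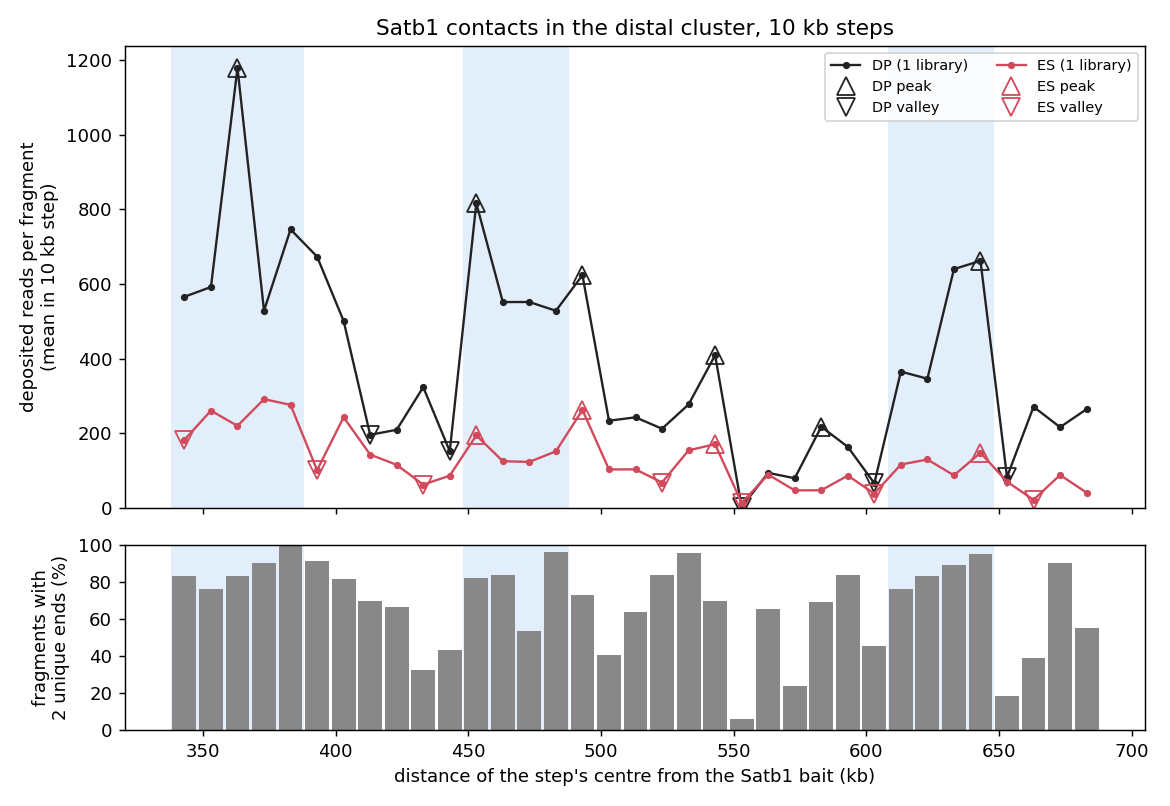
Mean deposited reads per fragment in 10 kb steps (upper panel) and the percent of fragments whose ends both occur once in the genome (lower panel), against distance from the bait in kb. Lines are DP (black) and ES (red), 1 library each, triangles mark called peaks (up) and valleys (down), and shading marks the plotted windows. The DP line reaches 1179 at 363 kb and drops to 2.17 at 553 kb.

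The valleys differed in how closely ES followed DP. At 553 kb (chr17:52510000-52519999) DP had 104 reads on 48 fragments, a mean of 2.17 and 0.011 times its flanks, and ES had 635 reads, a mean of 13.2 and 0.17 times. At 603 kb (chr17:52560000-52569999) the means were 65.7 and 38.2, with heights of 0.20 and 0.49. Both libraries had a valley at these steps. The valley at 413 kb (chr17:52370000-52379999) had 196 reads per fragment in DP, 0.41 times its flanks, while ES had 143, 1.09 times its flanks. At 443 kb (chr17:52400000-52409999) the means were 152 and 86.2, with heights of 0.40 and 0.68. At 653 kb (chr17:52610000-52619999) they were 82.5 and 70.1, with heights of 0.22 and 0.81. These 3 valleys were called in DP and not at the same step in ES. The further ES valleys lay at 343, 393, 433, 523 and 663 kb, with heights of 0.57, 0.52, 0.35, 0.49 and 0.27. Those at 433 and 663 kb are the steps next to the DP valleys at 443 and 653 kb.

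Some low steps had few fragments that a 26 nt read can place, and others did not. A fragment was counted as having unique ends where both of its 26 nt ends occur once in mm9, and 599 of the 925 fragments (64.8%) did. Of these 85.0% had a read in DP and 71.0% in ES, against 16.7% and 14.4% of the 222 fragments with no unique end. In the valleys the share of such fragments was 70% at 413 kb, above that of the stretch, 43.5% at 443 kb, 6.25% at 553 kb, 45.8% at 603 kb and 18.4% at 653 kb. Steps with low DP levels at 523, 593 and 673 kb had 84.2%, 84% and 90.5%. The 8 steps with under 50% of such fragments had a median DP level of 117 reads per fragment and a median ES level of 54.4, against 501 and 129.5 in the other 27. Across the 35 steps, which share both libraries and lie next to each other, the share of such fragments correlated with the DP level (Pearson's r 0.599, Spearman's rho 0.60) and the ES level (0.594 and 0.584). With the fragments of 2 unique ends alone, the DP heights of the 5 valleys in order of distance were 0.52, 0.47, 0.038, 0.27 and 0.69. With these fragments alone the valleys at 553 and 603 kb were still called, and those at 413, 443 and 653 kb were not. At 553 kb that call rested on only 3 of the 48 fragments, the fewest a step may have. Further than this, the part of repeated ends in the valleys was not tested. The share of such fragments had r of -0.0085 and rho of 0.255 with the DP to ES ratio of the steps.

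The peaks rested on their leading fragment to different degrees. Over all 35 steps the top fragment held a median of 21.9% of the DP reads and 26.2% of the ES reads of its step. In the DP peaks it held from 11.7% at 453 kb to 44.0% at 583 kb. With the top fragment left out of the peak step and kept in its flanks, which can only lower a height, the DP heights in order of distance were 1.56, 1.87, 1.45, 2.05, 0.97 and 1.88. With the top fragment left out of every step, flanks included, 5 of the 6 peaks were still called, and the peak at 583 kb was not. At 583 kb the top fragment had 2197 of the step's 4996 reads and the median fragment had 2. In ES, with the top fragment left out of the peak step only, the heights at 493 and 543 kb were 1.99 and 1.71, and those at 453 and 643 kb were 1.38 and 1.22.

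Other subsets of fragments gave a further view of the same peaks. Over the fragments with 2 unique ends the DP heights were 2.14, 1.93, 1.72, 2.86, 1.71 and 1.60, all past 1.5. With these fragments alone 4 of the 6 peaks were still called, since those at 493 and 643 kb were no longer the highest step within 20 kb. At 643 kb the mean over these fragments was 660, against 713 at 633 kb. When odd and even fragments were taken apart, the heights at 453, 543 and 643 kb passed 1.5 in both sets, although at 643 kb the even fragments gave no peak call. The peak at 363 kb gave 1.34 and 2.57, that at 493 kb 1.26 and 2.24, and that at 583 kb 2.47 and 1.33. These pairs show how far the choice of fragments alone moved a height within 1 library.

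**Figure D2:**
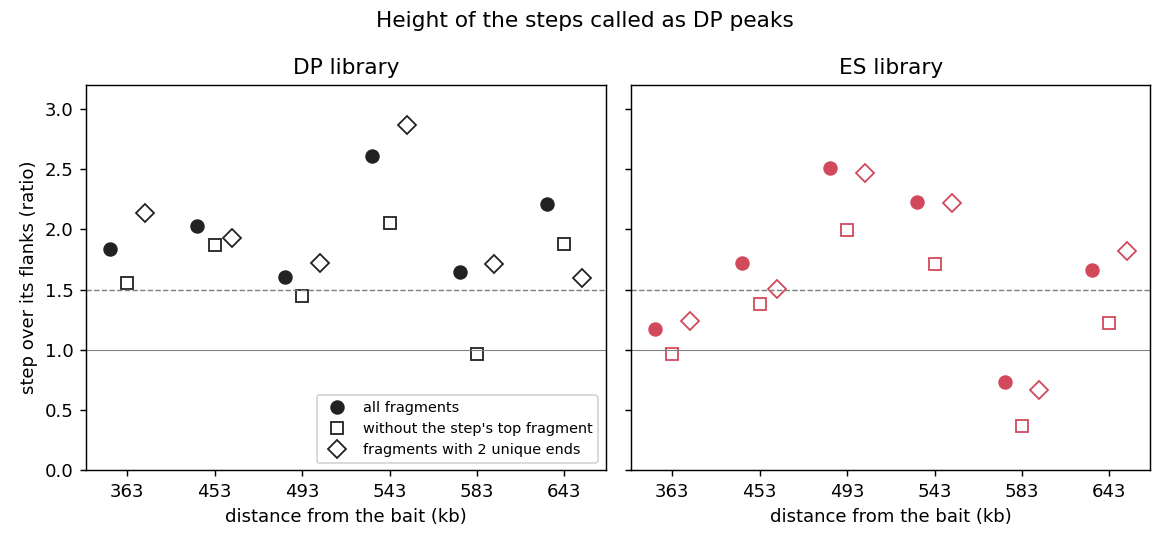
Height over the flanks of the 6 steps called as DP peaks, by distance from the bait in kb, in DP (left) and ES (right), 1 library each. Filled circles use all fragments, squares leave out the step's top fragment, diamonds use fragments with 2 unique ends, and the dashed line marks 1.5. At 583 kb the DP square lies at 0.97, and at 493 kb the ES circle, at 2.51, lies above the DP circle at 1.60.

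In 5 kb steps DP had 7 peaks among 70 steps (10%), against 9.31% of all 5 kb steps tested, and 6 valleys (8.57%), against 7.59%. ES had 7 peaks, with 9.31% called over the range, and 9 valleys, with 10.3% called. Each 10 kb DP peak contained a 5 kb peak, and a further 5 kb peak appeared at the far end, at 685.5 kb (chr17:52645000-52649999), with 471 reads per fragment and a height of 2.55. The step with the highest level, at 365.5 kb (chr17:52325000-52329999), had 1966 reads per fragment in DP over only 5 fragments, of which the top fragment held 43.4%. The step highest over its flanks was at 540.5 kb (chr17:52500000-52504999), with a height of 4.00, or 2.87 without its top fragment. Of the 7 DP peaks, 1 fell on the same 5 kb step as an ES peak, at 450.5 kb, with 10% of the 70 steps called as ES peaks. Within 10 kb of an ES peak lay 6 of the 7. The share of all 70 steps that lie this close to an ES peak was not computed, so the 6 cannot be set against it. The lowest step, at 555.5 kb (chr17:52515000-52519999), had 0 reads in both libraries on 27 fragments, none of which had a unique end, and it is the step of the repeat end printed above.

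The levels of DP and ES followed each other along the stretch in part. Over the 35 steps, neighbours that share the fragments and their mappability, the mean reads per fragment gave r of 0.693 and rho of 0.709. With the fragments of 2 unique ends alone these were 0.547 and 0.538. Fragment by fragment the likeness was weaker, since of the 599 fragments with 2 unique ends 382 were read in both libraries, 127 in DP only, 43 in ES only and 47 in neither, with rho of 0.275. The top fragment of a step was the same in both libraries in 6 of the 35 steps.

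The normalized DP level was above the ES level in 33 of the 35 steps of 10 kb, with 38.4% of all steps tested above. It was at least 2 times ES in 19 (54.3%), against 17.8% of all steps tested. The rule that chose the stretch used the DP signal, so this excess is a description. The steps with that ratio made up 18.8% of the 32 desert steps nearer the bait, 32.4% of the 34 steps in the same width beyond, and 7.43% of the 148 steps downstream of the bait. ES was at least 2 times DP in 1 step of the stretch, with 41.8% of all steps called in that direction. In 5 kb steps DP was above ES in 60 of 70, with 39.5% of all steps above, and at least 2 times ES in 37 of 69 (53.6%), with 20.4% called over the range.

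Inside the plotted windows 11 of 13 steps (84.6%) had DP at least 2 times ES, and outside them 8 of 22 (36.4%). The DP to ES ratio over the fragments was 2.24 in the window nearest the bait (chr17:52300000-52349999), 3.39 in the middle window (chr17:52410000-52449999) and 3.59 in the farthest (chr17:52570000-52609999). All fragments in the windows gave 2.82 and all outside gave 2.09. The windows were marked on this DP library, so their higher ratio is a description. The ratio outside them was above the 1.26 of the desert and the 1.60 of the next 350 kb beyond the stretch. The share of steps with DP at least 2 times ES outside the windows, 36.4%, was near the 32.4% of the steps in the same width beyond. In the desert it was 18.8%. The fragments outside the windows held 42.2% of the DP and 50.9% of the ES reads of the stretch.

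**Figure D3:**
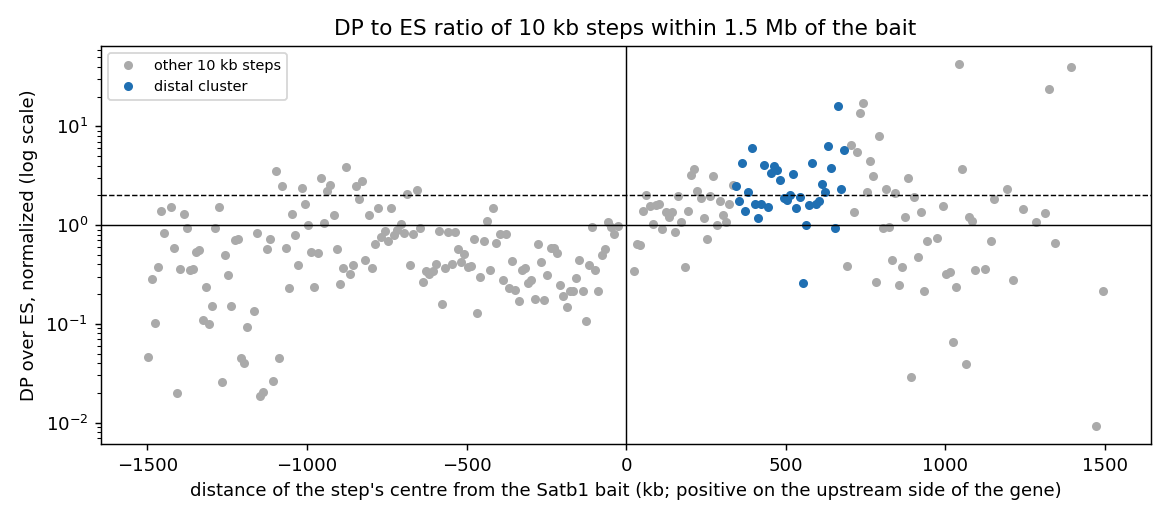
DP to ES ratio of quantile-normalized means in 10 kb steps (log axis) against distance from the bait in kb, for the distal cluster (blue) and all other steps within 1.5 Mb (grey), 1 library per cell type. The solid line marks equal levels and the dashed line a ratio of 2, and 32 of 296 steps with a mean of 0 in a library are not drawn. Of the blue points 33 of 35 lie above the solid line and 19 at or above the dashed line.

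Ratios of single steps differed widely. The highest, 16.0 at 663 kb (chr17:52620000-52629999), lay outside the windows and rested on 490 ES reads over 23 fragments. Of these fragments 9 had 2 unique ends, and over those 9 the ratio was 24.8. The next ratios over all fragments were 6.26 at 633 kb, the step of the 93 bp leading fragment, and 6.08 at 393 kb (chr17:52350000-52359999), just past the nearest window. At 393 kb ES had a valley, with 101 reads per fragment and a height of 0.52, while DP had 673 and 1.27, and this step holds the DP leaders at 389 and 392 kb. With the top fragment of each library left out, the ratios at 663, 633 and 393 kb were 18.7, 9.61 and 6.54. The lowest ratios were 0.26 in the empty valley at 553 kb and 0.94 in the valley at 653 kb, which became 0.41 and 1.33 over fragments with 2 unique ends.

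At the near border of the stretch the DP level changed little in 10 kb steps. At the far border it dropped in the first step beyond and came back after it. The last 10 kb before the stretch had a DP mean of 581 and an ES mean of 187 deposited reads per fragment. The first 10 kb within it had 566 and 182. The DP to ES ratios of the normalized means were 2.53 and 2.49. In 5 kb steps the means fell across this border, from 592 to 442 in DP and from 225 to 161 in ES. The first 5 kb within was called as a DP valley. The last 10 kb within the stretch had 264.5 and 40.5 deposited reads per fragment, and the first 10 kb beyond had 12.3 and 36.3. Their ratios of normalized means were 5.73 and 0.38. In normalized reads per fragment DP had 238 in that last step within, 16.0 in the first beyond and 206 in the next, at 703 kb, where the ratio was 6.44. At 733 and 743 kb DP had 221 and 261, with ratios of 13.6 and 17.2, so DP levels like those at the end of the stretch also occurred outside it.

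Short motifs of factors that act in T cell development were searched on both strands of each 10 kb step. RUNX factors bind AACCACA, which was in 29 of the 35 steps and 4 of the 6 DP peaks, against 89.6% of the 299 steps within the range. TCF and LEF factors bind CTTTGAT, which was in 33 of the 35 steps and 5 of the 6 peaks, against 87.6%. AACCACA was absent from the peaks at 363 and 583 kb and CTTTGAT from that at 493 kb. Such letters are found in most steps of this length, and a match is not a measured binding site.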

How the data were processed

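The authors cross-linked cells, digested chromatin with DpnII and Csp6I, sequenced the junctions with the Satb1 bait and assigned mapped reads to DpnII fragments of the bait chromosome. Their processing notes name bcl2fastq and Bowtie 1.0.0, and the build is mm9. The deposited values are read counts per fragment, listed by midpoint, without normalization or collapsing of PCR duplicates. The study's script for such files drops fragments with over 2% of all reads. How reads with several matches were treated is not given in the sources used here.

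All 229546 midpoints matched DpnII fragments of the mm9 sequence. Chromosome 17 totals were 1997083 reads in DP, 83.0% of them within 1.5 Mb of the bait, and 1847598 in ES, 66.8%. Of the 7547 fragments within that range, 39.2% had a read in DP and 50.4% in ES. Levels within a library are deposited counts. For DP against ES, both libraries were quantile normalized over that range with ties averaged, checked against limma 3.58.1 in R 4.3.3, while tables used Python 3.11.15 with pandas 2.3.3 and numpy 2.4.6. Steps needed at least 3 fragments, and the ratio counts omit steps less than 20 kb from it. Scripts were tested on simulated data. The 4 other libraries, with other baits, were not used. The borders of the 3 plotted windows were read by eye to the nearest 10 kb. Named were the peaks and valleys called in 10 kb steps, the 5 leading fragments per library, the extreme ratios, Satb1, genes in the stretch and its nearest neighbours. The ratios of the steps at 633 and 393 kb were added after their values were seen. The members and lists were chosen with earlier results of these data known.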

Additional observations from a re-analysis of the deposited data

How the results depend on the processing

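With 1 library per cell type no value has a replicate error, and no paired analysis was possible because each group has 1 library. The DP to ES ratio of the stretch, 2.45, was 2.76 scaled to the reads of the chromosome, 2.22 scaled to those within 1.5 Mb of the bait, 2.34 normalized within 1 Mb, 2.48 without 20 kb around the bait, 2.41 with counts capped at the 99th percentile, 2.77 without each step's top fragment, 2.48 over fragments with a Csp6I site, 2.49 over fragments with 2 unique ends (chosen after seeing the data and normalized among themselves) and 1.19 as a ratio of the shares of fragments with a read. As shares of fragments with a read, 1 of 35 steps reached 2 times ES, as did 1 of the 22 outside the windows. That measure called 1 DP peak in 10 kb steps and 2 in 5 kb steps, of which 0 were among the main peaks. A share cannot exceed the whole. Steps with most of their fragments read in ES could therefore not reach 2 times ES. Steps with well-read flanks could not reach 1.5 times them. The low counts by this measure thus do not tell whether the excess or the peaks hold at such steps. At 2 times the flanks, 3 DP peaks remained in 10 kb steps. The other alternatives left each count, as a share of its steps, within 1.5 times. Single peaks and valleys were also followed through 12 alternatives, of which some had an outcome fixed in advance. Every call at 1.5 times the flanks also passes at 1.2 times, and the share of fragments with a read cannot call peaks with well-read flanks. The DP peak at 543 kb was called under 11 of 12 alternatives, those at 453 and 363 kb under 10 and 9, that at 643 kb under 7, and those at 493 and 583 kb under 6 and 5. The valleys at 553 and 603 kb were called under 12 of 12, and those at 413, 443 and 653 kb under 6, 8 and 9. The step at 553 kb had only 3 fragments with 2 unique ends. The odd and even sets of fragments were chosen after seeing the data.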
